A study of Mus musculus with 4 samples.

Results

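Arntl, Clock, Nr1d1 and Nr1d2 form the loop of the circadian clock in which the activator pair BMAL1 and CLOCK and the REV-ERB repressors control each other's genes. They were followed here in mouse liver at 2 times of day, with and without adrenal glands. All probe sets whose only gene symbol in the platform annotation was one of these 4 were taken, which gave 4 of the 12422 probe sets on the array, 1 for each gene. The rule itself uses no measured value, but the genes were chosen with earlier results of these data known. Messenger RNA of whole liver from male C57BL/6 mice had been hybridised to 4 Affymetrix MG_U74Av2 arrays, 1 for each group. Sham-operated mice, the controls, had standard chow and plain water, and gave liver at ZT2 or ZT14, where ZT (zeitgeber time) counts hours from lights on. Adrenalectomised (ADX) mice had lost both adrenal glands through a dorsal operation under ketamine (91 mg/kg) and xylazine (3.6 mg/kg), injected into muscle. They had the same kind of chow and 0.9% NaCl to drink, and were sampled at the same ZT. The sources used here do not give the light schedule, the animals' age or the time since the operation. The ADX operation removes the medulla with its catecholamines as well as the glucocorticoid and mineralocorticoid hormones of the cortex. The labels name no separate animals behind the arrays, so nothing says whether an array stands for 1 liver or a pool.

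BMAL1, the product of Arntl, binds DNA as a pair with CLOCK at E-boxes and switches on the genes of the PER and CRY proteins, which return to block it. The same pair switches on Nr1d1 and Nr1d2, which encode the nuclear receptors REV-ERB alpha and REV-ERB beta. REV-ERB proteins bind haem, recruit the NCoR and HDAC3 corepressor and repress Arntl through sites called ROREs, where ROR receptors activate. In rodent liver Arntl messenger RNA is known to be high around the end of the night and the start of the day, and REV-ERB messenger RNA in the later part of the day. Liver clocks are known to be reset by feeding and by glucocorticoid hormone, and the design lets each difference between the times be read with and without adrenal glands.

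The DNA at the start sites of these genes is shown first, because the loop acts through it. RefSeq start sites on assembly GRCm38.p6 gave 2 windows for Arntl, 3 for Clock, 1 for Nr1d1 and 1 for Nr1d2, each running from 250 bases before the start to 50 bases after it. Both strands were searched for the E-box CACGTG, its variant CACGTT, the AGGTCA core that REV-ERB and ROR share, the RORE (that core behind an AT-rich flank, so that each RORE also holds the core) and the D-box TTANGTAA. The sequences below are 30 bases long, read 5′ to 3′ on the strand of the gene, and the capitals mark the match.
Arntl, RORE, chr7:113207528-113207557, plus strand: ggaaggcagAAAGTAGGTCAgggacggagg
Arntl, RORE but for 1 letter, chr7:113207492-113207521, plus strand: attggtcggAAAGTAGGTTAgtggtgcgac
Nr1d1, E-box variant on the other strand, chr11:98775388-98775417, minus strand: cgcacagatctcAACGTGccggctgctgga
Nr1d1, RORE but for 1 letter, chr11:98775367-98775396, minus strand: gctgctggaAAAGTGTGTCActggggcacg
Nr1d2, core, chr14:18239166-18239195, minus strand: gattggaagaagAGGTCAggaccgctcgtt
Clock, core on the other strand, chr5:76303604-76303633, minus strand: agctttggcctcTGACCTgacagatgacag

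Arntl was the only one of the 4 genes with a full RORE match in these windows, with its first base at position 27 from the second start site. The match that is off by 1 letter begins at position -10 from that same start, so both lie close together around it. Of all 32851 promoter windows of the table, 0.384% hold a full RORE, 8.37% hold one when 1 letter may differ, and 16.3% hold the AGGTCA core. Nr1d1 carried the E-box variant, found in 4.68% of all windows, with its first base at position -28. The core of Nr1d2 began at position -77, and that of Clock at position -119 from the furthest downstream of its 3 starts. None of the 7 windows held the E-box CACGTG, which 7.15% of all windows hold, or the D-box, which 2.32% hold. A match describes letters only, and sites outside these windows were not searched.

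**Figure D1:**
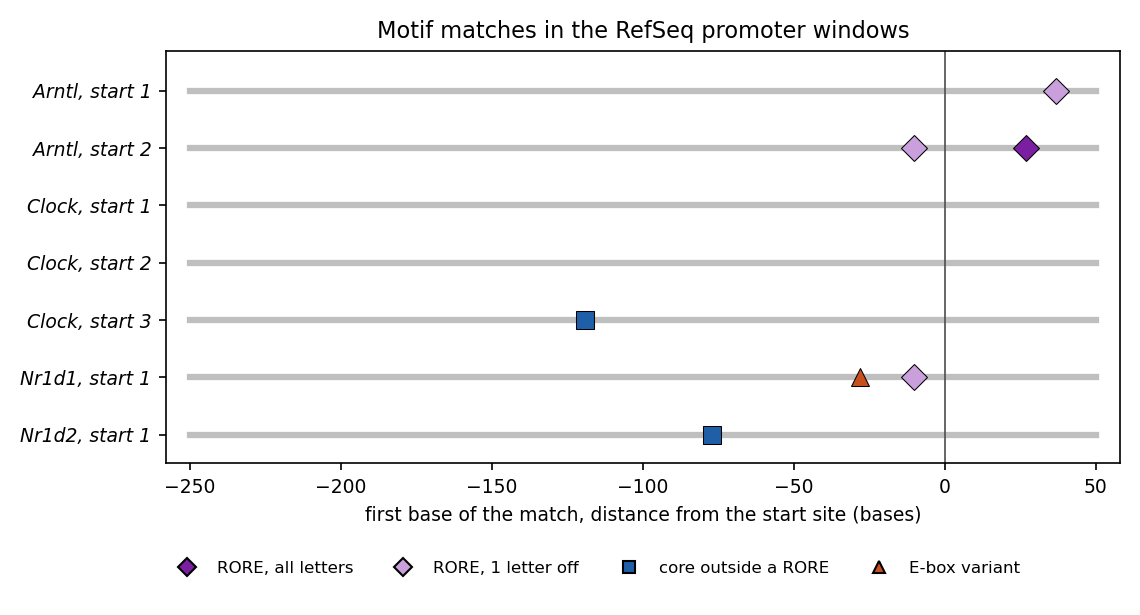
Motif matches in the RefSeq promoter windows of the loop genes, 1 grey line per window, with the distance of the first matching base from the start site in bases on the x axis. The only full RORE match (dark diamond) lies at position 27 from the second start of Arntl, and "core" in the key stands for the letters shared by REV-ERB and ROR sites.

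Signals below are in array units after each array was scaled to the same 2% trimmed mean, and each carries the deposited detection call of Present, Marginal or Absent. Present calls covered between 44.4% and 47.0% of probe sets on the arrays. All 7 hepatocyte markers on the array were Present on every array, with a summed signal between 25473.1 and 28145.0. None of 3 bile duct or 4 skeletal muscle markers was Present on any array. Endothelial markers were Present for 3 of 4, exocrine pancreas and adipose for 1 of 2 each, and red cell for 2 of 2. The counts differed between operations for 2 types. Blood and immune markers were Present for 4 of 6 on each sham array and 3 on each ADX array. Stellate markers were Present for 1 of 5 on each sham array, 4 on the ADX ZT2 array and 2 on the ADX ZT14 array. Whether cell content differed with the operation was not tested. Levels in whole liver do not tell fewer cells of a type from less RNA per cell. With 1 array per group no difference between groups has a replicate check, so a probe set was counted as different by size alone, at 2-fold or more with the brighter array Present. A fold whose dimmer array was not called Present is a lower bound, written "at least". The array has 1 probe set per loop gene, so no second probe set bears on any of their values.

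Signals under a floor of 3.91 units were set to it, and no loop gene signal lay under that floor. Arntl was high at ZT2 and low at ZT14, with the widest swing of the 4 genes at that floor. At ZT2 its signal was 74.95 in sham and 69.64 in ADX mice, and at ZT14 it was 5.47 and 9.29. The call was Present on the first 3 of these arrays and Absent on the ADX ZT14 array, with a deposited detection p of 0.107. Both ZT2 arrays thus lay far above both ZT14 arrays, whichever operation the mice had. In sham mice the signal was 13.7-fold lower at ZT14 than at ZT2, a log2 difference of -3.78. That placed Arntl as the third lowest of the 6166 probe sets Present on at least 1 of the 2 sham arrays. In ADX mice it was at least 7.5-fold lower (-2.91), the fifth lowest of 6125. Higher floors can shrink these sizes, since both ZT14 signals are low. With a doubled floor the differences were -3.26 in sham and -2.91 in ADX mice. With the floor at the 90th percentile of Absent signals (16.6 units) they were -2.18 and -2.07, and the ADX swing was then no wider than that of Nr1d2, at 2.25. The probe set, 102382_at, was designed on a transcript of the gene at chr7:113178471-113314126, a span of 135656 bp.

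Clock encodes the partner of BMAL1 and is known for a shallow rhythm in liver. Its signals were 39.14 in sham and 32.74 in ADX mice at ZT2, and 27.27 and 24.98 at ZT14, all Present. The ZT14 arrays were again the lower ones, but by less than 2-fold. Clock was 1.44-fold lower at ZT14 in sham mice (-0.52) and 1.31-fold lower in ADX mice (-0.39). Differences at least this far from 0 were seen for 18.2% of the 5250 probe sets Present on both sham arrays and for 27.1% of the 5167 Present on both ADX arrays. So the direction was that of Arntl in both pairs, at a size that many genes on the array reached. The gene of probe set 92257_at spans chr5:76209868-76305603.

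Nr1d2 encodes REV-ERB beta and was high where Arntl was low. At ZT2 the signal was 23.41 in sham and 17.51 in ADX mice, and at ZT14 it was 63.92 and 83.26, all Present. Both ZT14 arrays lay above both ZT2 arrays. The gene was 2.73-fold higher at ZT14 in sham mice (1.45 on the log2 scale) and 4.75-fold higher in ADX mice (2.25). It ranked 71 from the highest in the sham pair and 19 from the highest in the ADX pair. The probe set, 99076_at, is assigned to Nr1d2 (chr14:18204056-18239106) by the platform annotation through the accession it was designed on, while the array files' own older description calls it thyroid hormone receptor alpha, the product of Thra.

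Nr1d1, which encodes REV-ERB alpha and is one of the strongest rhythmic genes known in liver, was nearly level between these 2 times. Sham mice had 37.94 at ZT2 and 31.76 at ZT14, and ADX mice 25.65 and 37.15, all Present. The highest and the lowest value were both from ZT2, so the times overlapped, and the operations overlapped as well. Nr1d1 was 1.19-fold lower at ZT14 in sham mice (-0.26) and 1.45-fold higher in ADX mice (0.53). Differences of this size were common, at 46.0% of probe sets Present on both arrays in the sham pair and 15.5% in the ADX pair. Levels between these times were not measured.

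The Nr1d1 probe set, 98507_at, was designed on a 3′ expressed sequence tag, and its gene (chr11:98767932-98775377) lies tail to tail with Thra. These genes are known to run on opposite strands, and their RefSeq spans share 1075 bp, chr11:98767932-98769006. A probe set named Thra, 92348_at, was designed on another 3′ tag and had 37.66 at ZT2 and 27.56 at ZT14 in sham mice and 25.02 and 31.70 in ADX mice, all Present. Its profile lay 0.10 (root mean square log2 distance) from that of Nr1d1 and 0.96 from that of Nr1d2. Closeness to the nearly level profile of Nr1d1 was common, with 1452 of 4559 genes within 0.25 of it. The other Thra probe set, 99077_at, was Absent on every array. Level at the floor, it still lay 0.23 from Nr1d1 and 0.95 from Nr1d2, so these distances do not tell which transcript the Nr1d1 probes read. Thra was looked up after the values had been seen, and which strand the Nr1d1 probes read was not tested.

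**Figure D2:**
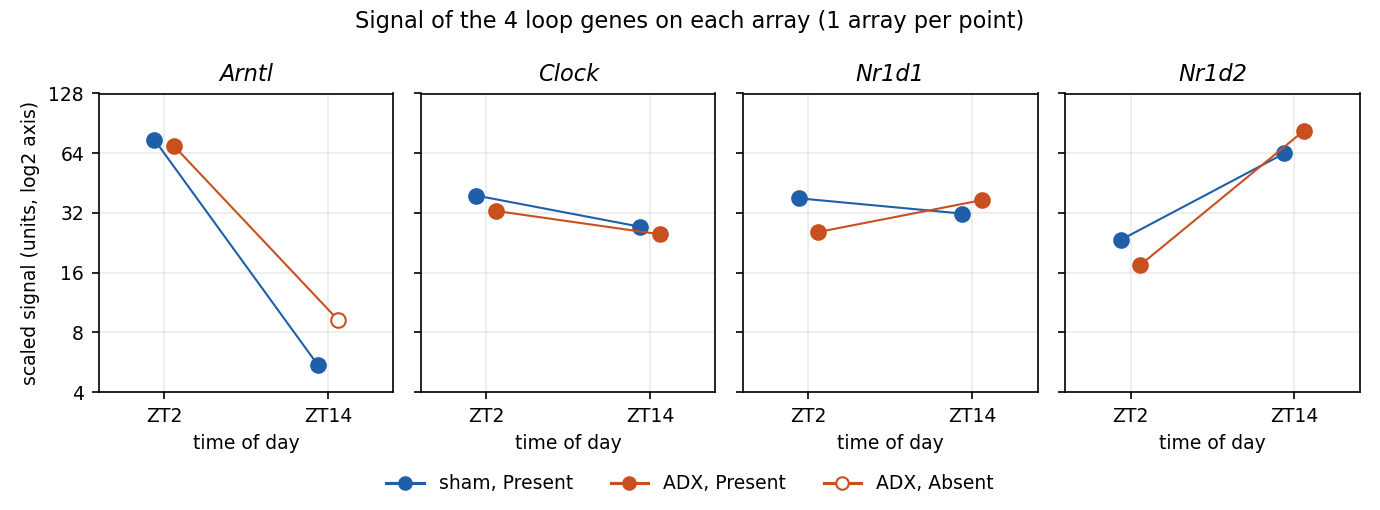
Scaled signal of the 4 loop genes at ZT2 and ZT14 on a log2 axis, with 1 array per point, sham in blue and ADX in orange, and an open point where the call was Absent. Arntl drops from 74.95 and 69.64 at ZT2 to 5.47 and 9.29 at ZT14, Nr1d2 climbs, Clock is slightly lower at ZT14 and the lines of Nr1d1 cross.

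By the rule of size, 1 loop gene was lower (Arntl), 1 higher (Nr1d2) and 2 neither at ZT14 against ZT2 in sham mice, and the same genes fell in the same classes in ADX mice. Of all probe sets, 3.42% were higher and 2.53% lower in the sham pair, and 2.89% were higher and 2.45% lower in the ADX pair. These shares move with the scaling. Quantile normalization called 161 higher and 193 lower in the sham pair and 148 and 201 in the ADX pair, and signals as deposited 173 and 198 in the sham pair, against 211 and 156 (sham) and 177 and 150 (ADX) in the main scaling. For the spread of single genes, a robust SD (from the median absolute deviation) over probe sets Present on both arrays was 0.35 in the sham pair and 0.33 in the ADX pair. Arntl was 10.89 and 8.87 of these from 0, and Nr1d2 4.18 and 6.86. Clock was 1.5 and 1.19 from 0, and Nr1d1 0.74 and 1.63. A difference at least as far from 0 as that of Arntl was seen for 0.0571% and 0.0774% of these probe sets, and as far as that of Nr1d2 for 1.14% and 0.213%.

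**Figure D3:**
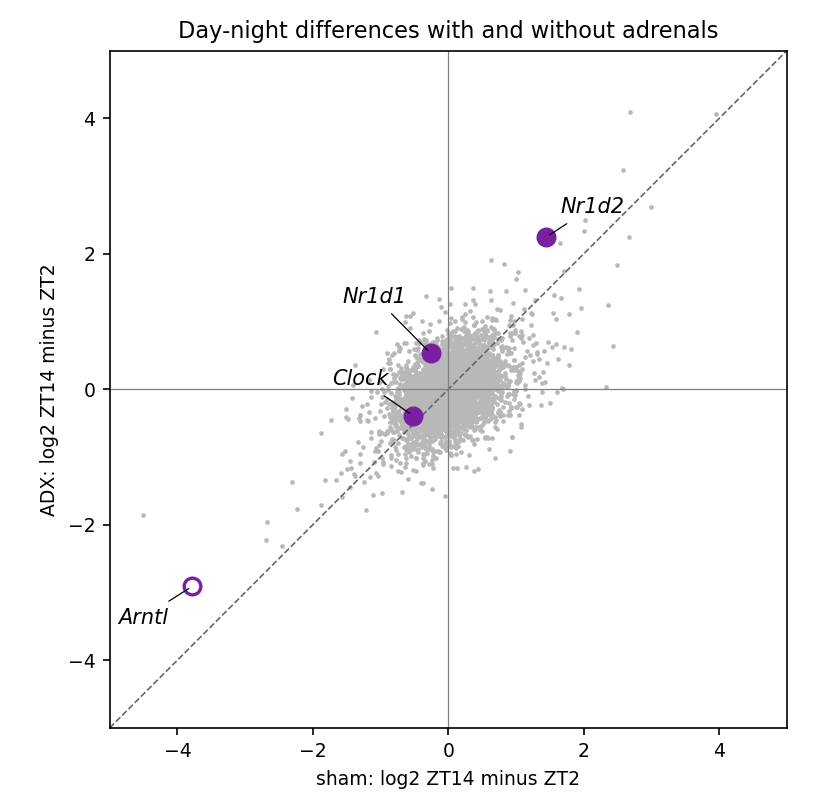
Log2 difference of ZT14 minus ZT2 in sham mice (x axis) and in ADX mice (y axis) for the loop genes (purple) over all 4877 probe sets Present on all 4 arrays (grey), with the line of equal difference dashed. Arntl, open because 1 of its arrays was Absent, lies at -3.78 and -2.91, Nr1d2 at 1.45 and 2.25, and Clock and Nr1d1 inside the grey cloud.

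The day-night differences with and without adrenals were then set against each other, as ADX minus sham. This gave 0.87 for Arntl, 0.80 for Nr1d2, 0.79 for Nr1d1 and 0.13 for Clock on the log2 scale. The robust SD of the same quantity over the 4877 probe sets Present on all 4 arrays was 0.37. Values as far from 0 were seen for 7.36% of them in the case of Nr1d2, 7.69% for Nr1d1, 5.66% for Arntl and 71.1% for Clock. So Nr1d2 had the larger climb on the ADX arrays. For Arntl no order of the drops can be read, since its ZT14 signals lie near the floor of 3.91 units and the ADX one was Absent. With 4 arrays there are no residual degrees of freedom for this difference, and it was not tested.

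At a fixed time, all 4 loop genes were within 2-fold of the sham level in ADX mice, 0 higher and 0 lower at ZT2 and at ZT14. The background was 1.73% of probe sets higher and 0.832% lower at ZT2, and 2.45% higher and 1.62% lower at ZT14. At ZT2 all 4 signals were lower in ADX mice. Nr1d1 was 1.48-fold lower (-0.56), Nr1d2 1.34-fold (-0.42), Clock 1.2-fold (-0.26) and Arntl 1.08-fold (-0.11). Among probe sets Present on both arrays, 7.27% lay as far from 0 as Nr1d1, 14.8% as Nr1d2, 33.3% as Clock and 66.7% as Arntl. At ZT14 the REV-ERB genes were the higher ones in ADX mice, Nr1d2 by 1.3-fold (0.38) and Nr1d1 by 1.17-fold (0.23). Clock was 1.09-fold lower (-0.13), a size reached by 67.2%, against 24.9% for Nr1d2 and 46.9% for Nr1d1. Arntl read 9.29 in ADX against 5.47 in sham mice, but the brighter array was Absent, so these have no order. Without scaling, the median of all probe sets moved by -0.17 at ZT2 and -0.11 at ZT14, and the split of all calls turned to 69 higher and 90 lower at ZT2 and 106 and 137 at ZT14. Under quantile normalization it was 68 and 80 at ZT2 and 118 and 120 at ZT14, against 108 and 52, and 147 and 97, in the main scaling.

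**Figure D4:**
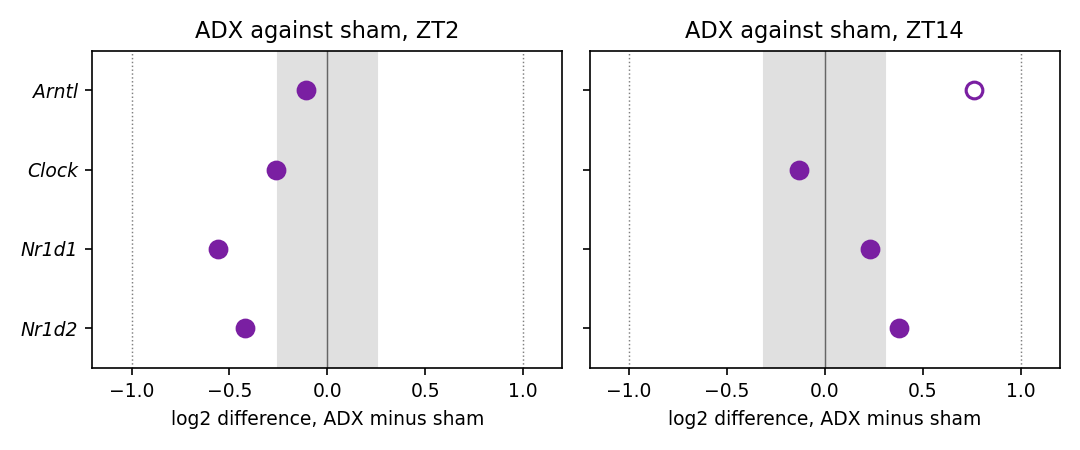
Log2 difference of ADX minus sham for each loop gene at ZT2 (left) and ZT14 (right), with dotted lines at 2-fold and a grey band of 1 robust SD either side of 0 (0.25 at ZT2 and 0.31 at ZT14), open where the brighter array was Absent. No gene reaches a dotted line, and Nr1d1 and Nr1d2 lie left of 0 at ZT2 and right of 0 at ZT14.

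An additive model with both time of day and operation over all 4 arrays left 1 residual degree of freedom. It was fitted with limma to the 5872 probe sets Present on at least 2 arrays. After Benjamini-Hochberg adjustment over all of them, time of day passed at 0.05 for 2 probe sets, 0.0341% of those tested, neither of them a loop gene. The time effect of Arntl was -3.34 on the log2 scale (SE 0.27, limma adjusted p = 0.100), with the 13th smallest p, and it was lower at ZT14 in both pairs. For Nr1d2 it was 1.85 (SE 0.25, limma adjusted p = 0.200), higher in both pairs. Clock had -0.46 (SE 0.16, limma adjusted p = 0.368), lower in both pairs, and Nr1d1 0.14 (SE 0.25, limma adjusted p = 0.832), with its pairs opposed. Operation passed for 0% of probe sets, with 329 at an unadjusted limma p under 0.05. Its effect was 0.33 for Arntl, -0.19 for Clock, -0.17 for Nr1d1 and -0.02 for Nr1d2, with limma adjusted p between 0.871 and 0.997. These counts depended on the variance prior. With a trend of the variance on signal, 154 probe sets passed for time, Arntl among them at a limma adjusted p of 0.00151 and Nr1d2 at 0.0112. Over all alternatives tried, this p reached 0.421 for Arntl and 0.444 for Nr1d2. With 1 array per group, the residual of a probe set comes only from the gap between its sham and ADX day-night differences. An effect of the operation on that difference would therefore count as error in this fit. Nothing says that the arrays come from separate animals, so the p-values do not measure how animals vary, and the variation behind them may be technical.

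Around the loop, the other genes that the same proteins bind or that bind them were read from lists drawn up with earlier results of these data known, so their counts are a description. Of 9 partners and paralogues of the loop proteins, 4 were on the array and 3 were Present on at least 1 array, and none passed 2-fold in either pair. Over all probe sets only 3.42% were higher and 2.53% lower in the sham pair, and 2.89% and 2.45% in the ADX pair. A count of none among 3 genes therefore says little. Rora, the receptor that activates at ROREs, had 96.8 at ZT2 and 62.6 at ZT14 in sham mice and 63.9 and 37.9 in ADX mice, all Present. It was thus lower at ZT14 in both pairs (-0.63 and -0.75) and lower in ADX mice at both times (-0.60 and -0.73), each by less than 2-fold. Its dimmer probe set was Absent on every array. Arnt, a relative of BMAL1 in the pathway of the dioxin receptor, differed by -0.29 and 0.05. Hdac3, the histone deacetylase that REV-ERB recruits, differed by 0.10 and -0.73, but it was Present on the sham ZT2 array alone. Npas2, a stand-in for CLOCK in other tissues, was Absent on every array. With 3 measured genes, the list median is the value of a single gene. It was -0.29 in the sham pair, from Arnt, and -0.73 in the ADX pair, from Hdac3, which was Marginal on both ADX arrays. The median of all probe sets was 0.00 in each pair.

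Output genes that BMAL1 and CLOCK are known to switch on through E-boxes were followed next. All 5 that were measured were past 2-fold higher at ZT14 in both pairs, opposite to Arntl, with a median of 3.96 in sham and 3.23 in ADX mice. The share of all probe sets higher was 3.42% in the sham pair and 2.89% in the ADX pair. Dbp, a transcription factor of the D-box, was Absent at ZT2 in both groups, with 1.2 in sham and 0.8 in ADX mice, and had 98.2 and 115.8 at ZT14, which makes it at least 25.1-fold and at least 29.6-fold higher. Its relative Tef was 5.95-fold and 9.41-fold higher. Noct, a deadenylase-like enzyme also called nocturnin, was 15.6-fold and 16.7-fold higher. Its 2 dimmer probe sets disagreed, but both carry the suffix of probes shared by a gene family, so what they read is uncertain. The brighter of them was Present on every array, with 0.00 on the log2 scale in sham and -0.24 in ADX mice. The other was Absent on both ZT2 arrays, so its 1.80 in sham and 2.66 in ADX mice are bounds. Usp2, a ubiquitin protease, was at least 18.5-fold and at least 6.26-fold higher, and Wee1, a cell cycle kinase, at least 2.21-fold and at least 4.26-fold.

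The repressors that close the E-box loop were mixed. Of 6 measured, 2 were past 2-fold higher in the sham pair, and 2 higher and 1 lower in the ADX pair, with medians of 0.59 and 0.51. The shares of all probe sets were 3.42% higher and 2.53% lower in the sham pair, and 2.89% and 2.45% in the ADX pair. Per2 had 7.8 in sham and 8.1 (Absent) in ADX mice at ZT2 and 47.8 and 42.5 at ZT14, which made it 6.15-fold and at least 5.22-fold higher. Bhlhe40, the repressor DEC1, was 6.35-fold and 4.76-fold higher. Per3 went the other way, with 19.9 at ZT2 in both groups and 13.0 in sham and 6.4 (Absent) in ADX mice at ZT14. It was 1.53-fold lower at ZT14 in sham and at least 3.11-fold lower in ADX mice, and at ZT14 at least 2.03-fold lower in ADX than in sham mice. The last 2 sizes rest on the Absent signal of 6.4, which lies under the doubled floor of 7.82 units, so higher floors shrink them. The other 3 did not reach 2-fold in either pair.

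Genes known to carry REV-ERB and ROR sites were on the side of Arntl where they passed 2-fold. Of 4 measured, 2 were past 2-fold lower at ZT14 in both pairs and none was higher, with medians of -0.67 and -0.74. The share of all probe sets lower was 2.53% in the sham pair and 2.45% in the ADX pair. Nfil3, a repressor of D-box genes, had 76.8 at ZT2 and 28.1 at ZT14 in sham mice and 54.6 and 20.2 in ADX mice, all Present. It was 2.73-fold lower in sham and 2.71-fold lower in ADX mice. Its dimmer probe set gave -0.98 and -2.84, which are bounds because it was Absent on both ZT14 arrays. That probe set also carries the suffix of probes shared by a gene family. Elovl3, a fatty acid elongase, had 112.0 and 102.0 at ZT2 and was Absent on both ZT14 arrays, which makes it at least 28.6-fold and at least 13.5-fold lower. Cry1 and Apoa1, the other measured genes of this list, stayed within 0.2 of 0 on the log2 scale in both pairs. Cry1 is also counted among the repressors, and its 2 dimmer probe sets lay at the floor. The probe set that stood for Cry1 carries the suffix of probes shared by a gene family, so its reading is uncertain.

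Of 4 measured kinases and ubiquitin ligase parts that act on clock proteins, none passed 2-fold in either pair, with medians of -0.12 and 0.17. Over all probe sets only 3.42% were higher and 2.53% lower in the sham pair, and 2.89% and 2.45% in the ADX pair. A count of none among 4 genes therefore says little. Haem, the ligand of the REV-ERB proteins, was followed through 10 measured genes of its synthesis and breakdown. Alas1, the rate-limiting enzyme of haem synthesis in liver, was 3.28-fold higher at ZT14 in sham and 3.35-fold higher in ADX mice. Its signals were 609.4 and 554.8 at ZT2 and 1998.2 and 1861.1 at ZT14 (sham first), so that the times did not overlap. Hmox1, which breaks haem down, had 29.9 on the ZT2 array of sham mice and 60.9 to 91.6 on the other arrays. It was 3.06-fold higher at ZT14 in sham and 1.36-fold in ADX mice, and 2.04-fold higher in ADX than in sham mice at ZT2. Fech, the last enzyme of haem synthesis, had 8.2 (Present) in sham and 3.7 (Absent) in ADX mice at ZT14. Its 2.10-fold lower level in ADX mice is thus taken against the floor of 3.91 units, and a higher floor shrinks it. The other 7 were within 2-fold in all comparisons, and the list medians were 0.00 and 0.03. Red cell markers, which share the haem pathway, summed to 1755.0 at ZT2 and 1052.1 at ZT14 in sham mice and to 1468.3 and 1959.7 in ADX mice, and their part in these values was not tested.

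**Figure D5:**
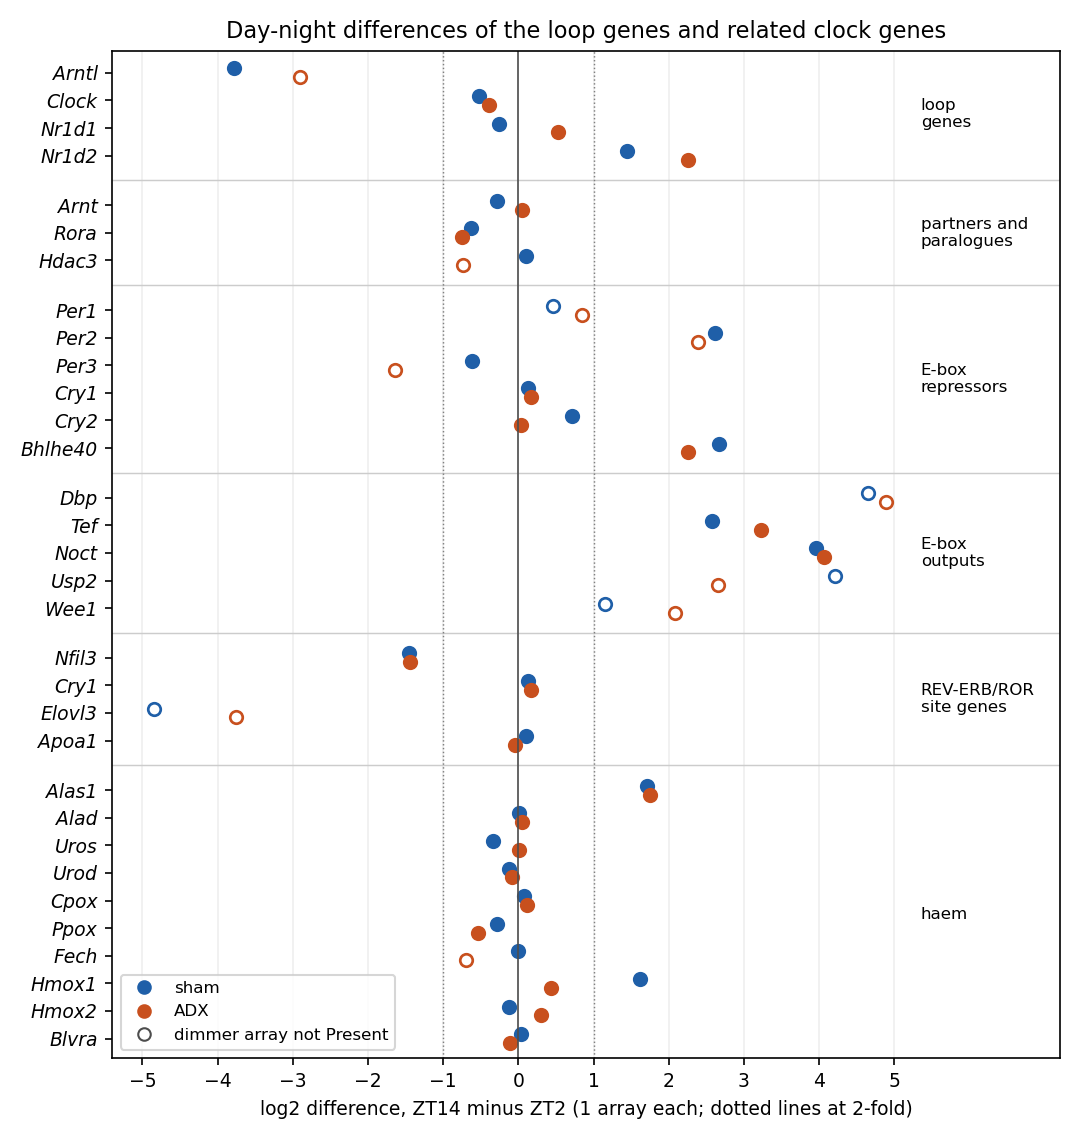
Log2 difference of ZT14 minus ZT2 in sham (blue) and ADX (orange) mice for the loop genes and the measured genes of 5 related lists, with 1 array per group and time, dotted lines at 2-fold and open points where the dimmer array was not Present. Nr1d2 lies on the same side as the E-box outputs, and Arntl on the side of Nfil3 and Elovl3.

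To see which genes had a profile like each loop gene, the mean-centred log2 signals over the 4 arrays were compared among 4559 genes, by root mean square distance. Only 4 points enter each profile, so likeness says little for a flat one. Clock had 1520 genes and Nr1d1 1452 genes within 0.25 of their profiles, and the nearest were Mapk9, Slc16a1 and Napa for Clock (0.02 to 0.03) and Orc6, Abhd14a and Chtf8 for Nr1d1 (0.01 to 0.04). Chtf8 was Absent on the sham ZT14 array and Marginal on the ADX ZT2 array. Arntl had no gene within 0.25 and 2 within 0.5. The nearest was Tubb2a at 0.46, with 718.5 at ZT2 and 110.9 at ZT14 in sham mice and 666.1 and 142.3 in ADX mice. Elovl3 followed at 0.48 and Tubb3, another beta tubulin, at 0.52. Both tubulin probe sets carry the suffix that marks probes shared by a gene family, so which tubulin gene they read is uncertain. The nearest mirror images of Arntl were Usp2 at 0.38, Tef at 0.44 and Noct at 0.47. Usp2 was Absent on both ZT2 arrays and Elovl3 on both ZT14 arrays, so their distances rest partly on signals that were not detected. Nr1d2 had 3 genes within 0.25 and 44 within 0.5. These 3 were Wee1 at 0.16, Alas1 at 0.21 and Elovl6, another fatty acid elongase, at 0.25, the last with 114.0 and 234.0 in sham and 80.7 and 266.9 in ADX mice. Wee1 was Marginal on the sham ZT2 array and Absent on the ADX ZT2 array.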

How the data were processed

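Per the file headers, the deposited value of each array is a Signal from a single-array (absolute) Affymetrix analysis, a linear intensity with a detection call. The deposited detection p-value was used through its call and is printed where named. The series' deposited value table held the same intensities (largest difference 0 over 12488 probe sets). The sources used here name neither the software nor its scaling target. Groups came from the sample titles, 1 array each, so array and group cannot be told apart, and the number of arrays limits the precision.

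Arrays were multiplied by 0.925 to 1.067 to a common 2% trimmed mean, and 66 control probe sets were then left out. Signals under 3.91 units, the median Absent signal, were set to that floor before log2. In the platform annotation 10833 probe sets had 1 symbol and 396 had several, and 10817 of the former were found in RefSeq (GRCm38.p6), from which promoter windows were also read. Where a gene had several probe sets, the one with the highest mean signal stood for it. Named genes are the loop genes, their 3 nearest profiles, list genes past 2-fold and all partners, and others are said to be chosen otherwise. The members and lists were chosen with earlier results of these data known. The additive model used limma 3.58.1 (lmFit, eBayes) in R 4.3.3, and other steps Python 3.11.15, NumPy 2.4.6 and pandas 2.3.3. The size rule and the time term of the additive fit were tested on simulated data. These held a time effect shared by sham and ADX and no operation effect, and the other steps were not simulated. Alternatives changed scaling, floor, detection rule, fold, filter, variance prior and model terms.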

Additional observations from a re-analysis of the deposited data

Results flagged for a closer look

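Nr1d1 differed in the opposite direction between ZT14 and ZT2 with and without adrenals, at 0.53 on the log2 scale in ADX and -0.26 in sham mice, 0.79 apart. Read the other way, the same 4 signals put ADX above sham by 0.23 at ZT14 and below it by 0.56 at ZT2 (-0.56), again 0.79 apart. Nr1d2, the other REV-ERB gene, showed the same pattern for the operation, with 0.38 at ZT14 and -0.42 at ZT2, 0.80 apart. None of these differences was tested, since each group has 1 array, and each single difference was under 2-fold. For Nr1d1, day-night differences as far from 0 were seen for 46.0% of probe sets Present on both sham arrays and 15.5% on both ADX arrays. A gap between them as far from 0 was seen for 7.69% of probe sets Present on all 4 arrays.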

How the results depend on the processing

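Signals as deposited, quantile normalization, a floor of 1 unit, a doubled floor (7.82), a floor at the 90th percentile of Absent signals (16.6), no detection rule and a 1.5-fold size each left the counts of loop genes called at 2, 2, 0 and 0 in the sham pair, the ADX pair, and between operations at ZT2 and at ZT14. Over these scalings and floors Arntl ranged from -3.85 to -2.18 in the sham pair and from -3.06 to -2.07 in the ADX pair, and Nr1d2 from 1.36 to 1.45 and from 2.22 to 2.25. The ADX minus sham value of Arntl at ZT14 ranged from 0.00 to 0.76, with 0.00 at the highest floor, where its operation effect in the fit was -0.05 in place of 0.33. Clock and Nr1d1 kept their direction in every comparison. In the limma fit, time passed for 2 probe sets in the main setting, 0 with no filter (1414 at an unadjusted p under 0.05), 1 with only probe sets Present on all arrays (which leaves Arntl out), 154 with a variance trend, 1 with a floor of 1 unit, 0 with the highest floor (916 at an unadjusted p under 0.05) and 11 without operation in the model. Operation passed for 1 with a variance trend, 1 without time in the model and 0 otherwise. The limma adjusted p of Arntl for time ranged from 0.00151 to 0.421 (0.0424 without operation in the model) and that of Nr1d2 from 0.0112 to 0.444. The cause was not tested. The mean over several probe sets of a gene was not run, since each loop gene has 1. No array could be left out of a 1-array group. No paired analysis was possible with 1 array per group, and the labels give no replicate numbers.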
